A study of Homo sapiens with 8 samples.

Results

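The genes described here are 9 members of HLA class I antigen presentation: the class I heavy chains HLA-B, HLA-C, HLA-E and HLA-F, the light chain B2M, the transporter subunits TAP1 and TAP2, tapasin (TAPBP) and the immunoproteasome subunit PSMB9. They were taken by name from the array annotation and were measured by 18 of 58201 probes (9 of 43317 gene names). HLA-B had 3 probes, TAPBP 4, HLA-C, HLA-E, HLA-F and TAP2 2 each, and B2M, TAP1 and PSMB9 1 each. The 8 arrays, all on 1 slide, each carried RNA of a human cancer cell line without transfection (the mock) in the Cy3 channel and RNA of the same line after transfection in the Cy5 channel. miR-139-5p and miR-139-3p were each transfected into A498 and into 786-O cells, both renal cancer lines. HCT116, a colorectal cancer line, received either strand of miR-490, with 1 array for miR-490-5p and 1 for miR-490-3p. The group si-GINS1 held 2 arrays of MDA-MB-231 breast cancer cells, 1 for each of 2 small interfering RNAs (siRNAs) against GINS1, a subunit of the replicative helicase. The transfections used the lipid reagent Lipofectamine RNAiMAX, and no array carried cells that received a control RNA, so that an effect of transfection itself and of the RNA transfected cannot be told apart.

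The replicates of both miR-139 groups were cell lines and those of si-GINS1 were siRNAs, and the labels do not say whether both arrays of a line carried 1 mock extract. No dyes were swapped, so unequal uptake of Cy3 and Cy5 by a probe also stands in its ratio. All ratios are log2 of transfected over mock, normalized within each array by loess. Each value is an average over a dish, so fewer expressing cells and less RNA per cell cannot be told apart.

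Class I molecules show peptides from inside the cell to CD8 T cells and natural killer cells, and almost every nucleated cell carries them. The proteasome, in which PSMB9 replaces a constitutive subunit after interferon signalling, cuts proteins into peptides. TAP1 and TAP2 together carry these peptides into the endoplasmic reticulum, where tapasin holds an empty pair of heavy chain and B2M next to the transporter until a peptide is bound. Tumour cells often express these genes weakly, and interferon raises them together through transcription factors such as IRF1 and NLRC5.

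The transfected miRNAs are shown because each strand of a duplex carries a seed of its own, the bases (2 to 8) by which a miRNA pairs with a target. The sequences are those of RefSeq (GRCh38.p14) for the miRNAs of these names, with the seed in capitals. miR-139 lies on the minus strand of chromosome 11, with its 5p strand at chr11:72615102-72615124 and its 3p strand at chr11:72615066-72615088. miR-490 lies on the plus strand of chromosome 7, with the 5p strand at chr7:136903205-136903224 and the 3p strand at chr7:136903242-136903263.
miR-139-5p: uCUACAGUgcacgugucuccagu
miR-139-3p: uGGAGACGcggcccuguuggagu
miR-490-5p: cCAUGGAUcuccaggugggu
miR-490-3p: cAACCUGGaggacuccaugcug
The 4 seeds were all distinct, so no 2 of these miRNAs share a seed family, and the strands of a duplex are compared below within 1 cell line.

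The heavy chain genes arose by duplication, and several of their probes could not be assigned to 1 gene by sequence. HLA-B probe 1 (chr6:31321653-31321712 on hg19, minus strand), HLA-B probe 2 (chr6:31321663-31321722) and HLA-C probe 1 (chr6:31321644-31321703) were all placed by the annotation over the end of HLA-B. HLA-C probe 1 overlapped HLA-B probe 1 by 51 bases and HLA-B probe 2 by 41 bases. The stretch below is the same 30 positions in the 3 probes, and the capital marks the position at which HLA-B probe 1 differs from HLA-C probe 1, G18T counted from the 5′ end of HLA-C probe 1.
HLA-C probe 1: gtcaattcctggaaGttgagagagcaaata
HLA-B probe 1: gtcaattcctggaaTttgagagagcaaata
HLA-B probe 2: gtcaattcctggaaGttgagagagcaaata
HLA-B probe 2 and HLA-C probe 1 share a run of 41 identical bases, so these 3 probes are reported by name and are not independent readings of 2 genes. HLA-C probe 2 (chr6:31236617-31236676) shared no run of 25 bases with another probe on the array, nor did HLA-B probe 3, for which the annotation gave no position.

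HLA-E probe 1 (chr6:30460882-30460941, plus strand) stood apart from the other heavy chain probes by its letters. It shared runs of 25 bases with 8 other probes, 5 on the same strand and 3 on the opposite one, for genes such as PTK6, TONSL and SLC2A11. HLA-E probe 2 (chr6:30460729-30460788) shared no such run, and where the HLA-E probes differ the second is the one specific by this measure. The TAP1 probe (chr6:32813210-32813269, minus strand) shared 25 bases with 1 probe on the opposite strand, for PSMB8-AS1. The probes of B2M (chr15:45007773-45007832) and the second probe of HLA-F (chr6:29692114-29692173) read coding sequence and matched no other probe, and they are shown whole because the results on the light chain and on si-GINS1 rest on them. Both are on the plus strand.
B2M probe 1: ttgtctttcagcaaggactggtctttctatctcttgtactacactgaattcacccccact
HLA-F probe 2: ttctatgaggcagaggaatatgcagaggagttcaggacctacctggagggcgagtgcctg

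The scanner software's flag placed 24980 to 29685 probes per array above background in Cy3, Cy5 or both, and a probe above background here is one that passed this flag. Of the 18 class I probes 16 were above background on all 8 arrays, covering all 9 genes. TAP2 probe 2 and TAPBP probe 4 were above background on 1 array only, that of siRNA 2, and are left out of every count below. No class I spot was saturated. GINS1 itself had log2 ratios of -1.31 with siRNA 1 and -1.92 with siRNA 2 (mean -1.61, SE 0.15, limma adjusted p = 0.0111). On the log2 mock scale the renal marker PAX8 was at 8.23 in A498 and 8.16 in 786-O, against 6.77 in MDA-MB-231 and 6.36 for HCT116. CDH6 passed the Cy3 flag in the renal lines only, PAX2 in these and in HCT116, and CA9 on 1 array of 786-O. Of the colorectal markers, EPCAM was highest in HCT116 and CDX2 passed the Cy3 flag there only (7.70), while CDX1 was higher in A498 (7.19) than in HCT116 (6.87), and VIL1 and CDH17 passed it in no line. Among leukocyte markers CD68 had no probe, PTPRC lay between 6.03 and 6.21 in all 4 lines, CD3E was at 6.22 in A498 and 6.25 in 786-O and its Cy3 signal was not above background elsewhere, and CD14 reached 8.42 in MDA-MB-231. Of the breast markers, only GATA3 was highest in MDA-MB-231 (6.99). KRT18 and KRT8 were higher in HCT116 (13.72 and 11.698) than in MDA-MB-231 (13.003 and 10.045), and ESR1 was lowest in MDA-MB-231 (5.997). The mesenchymal marker VIM was at 14.8 in MDA-MB-231, below A498 (15.093) and 786-O (15.32). CDH2 was also lower in MDA-MB-231 (5.989) than in A498 (10.204) and 786-O (11.335).

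In the mock cells the class I genes were lowest in HCT116. For 14 of the 16 probes HCT116 had the lowest mock level of the 4 lines, and the median difference between HCT116 and the mean of the other 3 lines was -1.72 on the log2 scale (range -3.08 to -0.13). The share of all probes lowest in HCT116 is not given here, so these values do not show a trait of the class I genes alone. Each level is the mean of 2 arrays of a line, and the array difference, the largest gap between the 2 arrays of any line, was 0.13 at the median of the class I probes. It holds array error and cannot be taken as a spread between cultures. The labels do not say whether both arrays of a line carried the same mock extract. Levels are log2 brightness after normalization between arrays and are compared only within a probe.

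PSMB9, the immunoproteasome subunit, differed most. Its mock level was 10.17 in A498, 10.11 in MDA-MB-231, 9.93 in 786-O and 6.99 in HCT116, so that HCT116 lay 8.48-fold below the mean of the others (14.1-fold with the scanner's processed signal). The levels of A498 and MDA-MB-231 were within the array difference of each other. B2M stood at 13.89 in A498, followed by 786-O at 13.11, MDA-MB-231 at 12.71 and HCT116 at 10.52, 6.55-fold lower in HCT116, and every step in this order was larger than the array difference of 0.11.

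Among the heavy chains, HLA-B probe 1 stood at 14.30 in A498, 14.05 in MDA-MB-231, 13.59 in 786-O and 11.89 in HCT116 (4.25-fold lower in HCT116). HLA-C probe 2 followed the same order, at 14.58, 14.11, 13.96 and 12.57 (3.14-fold). HLA-F probe 1 was highest in MDA-MB-231 at 13.53, then 13.08 in A498, 12.47 in 786-O and 10.66 in HCT116 (5.17-fold). For HLA-B probe 3 the lines spread over 2.86 log2 units, from 10.75 in MDA-MB-231 over 10.15 in A498 and 8.65 in 786-O to 7.88 in HCT116.

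HLA-E, the non-classical chain that presents signal peptides of other class I chains to NKG2A receptors, differed least by probe 1, at 15.77 in MDA-MB-231, 15.51 in 786-O, 15.50 in A498 and 15.46 in HCT116. Neighbours among the last 3 were not separated beyond the array difference. HLA-E probe 2, without the shared letters, stood at 11.90 in MDA-MB-231, 11.72 in 786-O, 11.53 in A498 and 10.44 in HCT116, 2.43-fold lower in HCT116, with the neighbours among the first 3 within the array difference. Both probes placed HCT116 last, by 1.1-fold with the first and 2.43-fold with the second.

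In the loading complex, TAP1 stood at 10.63 in MDA-MB-231, 10.34 in A498, 9.30 in 786-O and 8.87 in HCT116 (2.33-fold lower in HCT116). TAPBP probe 1 stood at 11.21 in MDA-MB-231, 10.18 in 786-O, 10.02 in A498 and 8.64 in HCT116 (3.54-fold). TAP2 was one of the 2 exceptions. Its probe 1 was at 8.95 in MDA-MB-231, 7.96 in A498, 7.73 in HCT116 and 7.63 in 786-O, and the last 3 lines were not separated beyond the array difference of 0.37. The other exception was TAPBP probe 3, at 6.21 in A498 and 6.23 in HCT116, also within the array difference. MDA-MB-231 was highest for 10 probes and A498 for 6. When the Cy3 channel alone was quantile normalized, HCT116 was again lowest for 14 probes, and with the scanner's processed signal for 15.

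**Figure D1:**
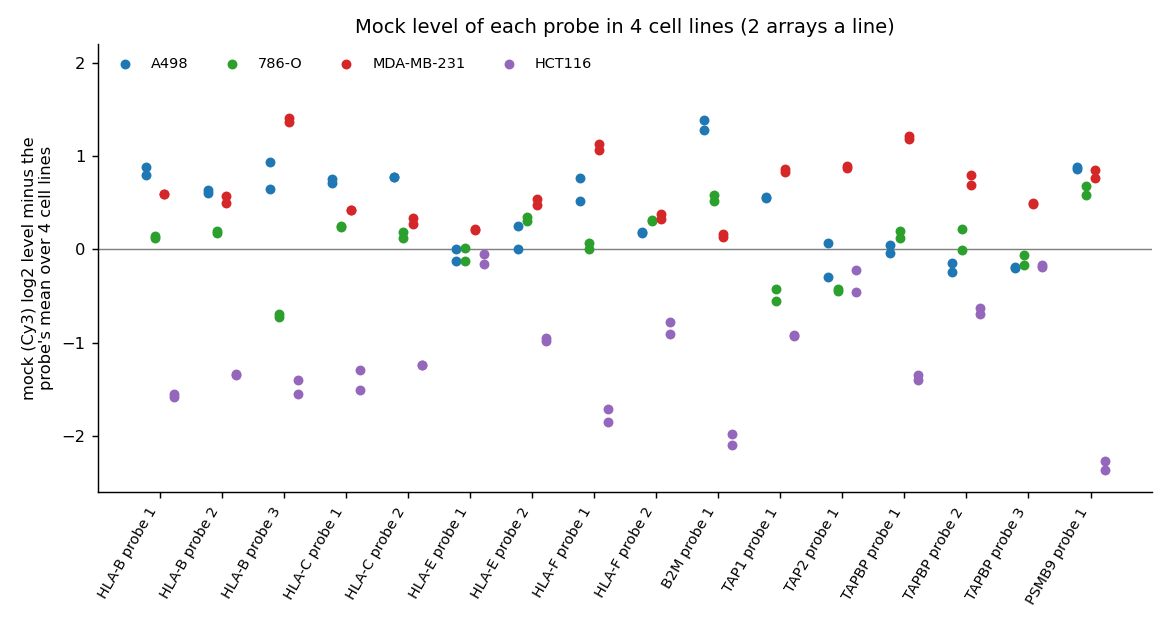
Mock (Cy3) level of each of 16 class I probes as the difference from that probe's mean over 4 cell lines (y axis, log2 units), with 1 point for each of 2 arrays of a line. The HCT116 points are the lowest for every probe except HLA-E probe 1, TAP2 probe 1 and TAPBP probe 3, and lie deepest for PSMB9 and B2M.

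After transfection the class I ratios differed in size and direction between arrays. By the median of the 16 probes, the ratio in A498 was -0.07 with miR-139-5p and -0.43 after miR-139-3p. In 786-O cells the same miRNAs gave 0.01 and -0.05. The median was 0.33 with siRNA 1 and 0.27 with siRNA 2, and in HCT116 it was -0.30 with miR-490-5p and 0.16 with the 3p strand. Below 0 lay 11 of 16 probes on the first of these arrays, 15 with miR-139-3p in A498, 7 and 10 for 786-O, 1 and 3 with siRNA 1 and siRNA 2, 13 with miR-490-5p and 1 after miR-490-3p. Of all probes above background, 46.2% to 49.8% lay below 0, by array. No class I probe reached a log2 ratio of 1 in either direction on any array, and the values ran from -0.84 (B2M, miR-139-3p in A498) to 0.97 (HLA-F probe 2, siRNA 1). With a background offset of 10, without background correction and with the scanner ratio, 1 probe did pass 1 on the siRNA 1 array (HLA-F probe 2), and with median centring 11 did. Of the ratios with miR-139-3p in A498, 11 of 16 lay under the 5th percentile of all probes on that array, which was -0.289. On each of the other arrays 0 to 5 of 16 lay under that array's 5th percentile. For miR-139-3p in A498 the count was 10 with offset 10, 9 with median centring and 2 with the scanner ratio (5th percentile -0.738). Directions depended on the scaling: with median centring, no class I probe was below 0 with miR-139-5p in A498 (median 0.29), 14 were after miR-139-3p in those cells (-0.27), 4 after the same strand in 786-O (0.16), and none with siRNA 1 (1.09). Median centring moved the arrays as a whole. Of all probes above background, 18.3%, 37.6%, 25% and 23.1% then lay below 0 on these arrays, in that order. When 1 probe stood for each gene (the brightest), the medians over 9 genes were -0.05 and -0.45 in A498, 0.02 and -0.03 for 786-O, 0.33 and 0.24 with the siRNAs, and -0.31 and 0.21 for HCT116, in the same order. There HLA-B and HLA-C were each read by probe 1, which overlap, and HLA-E by probe 1, with its shared letters.

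**Figure D2:**
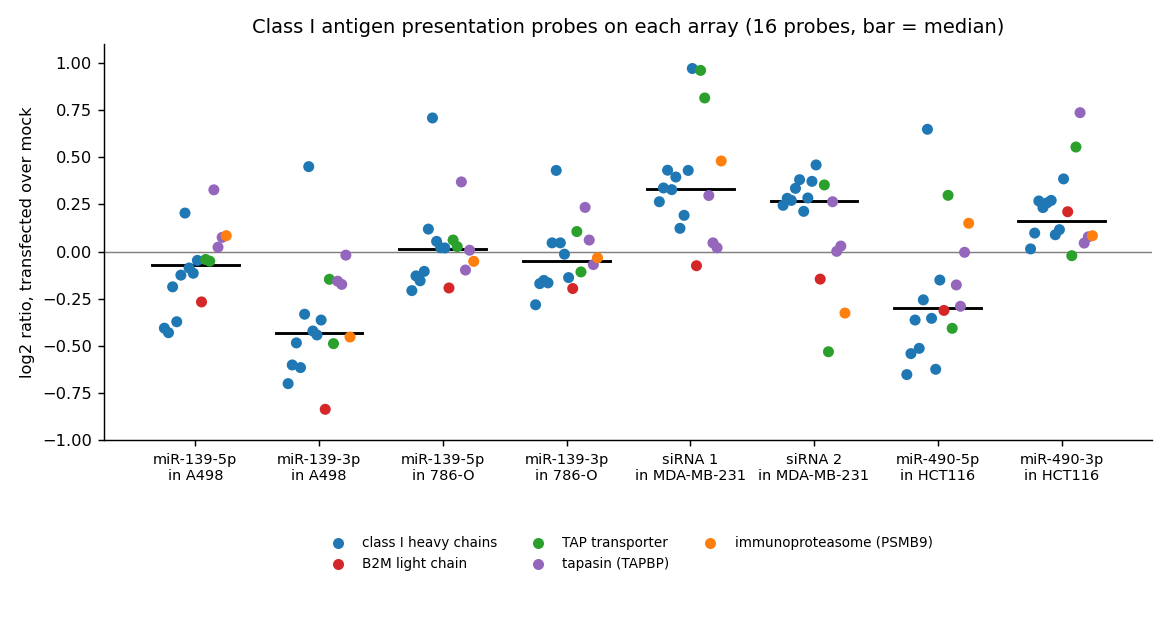
Log2 ratio of transfected over mock for 16 class I probes (points, coloured by role) on each of 8 arrays, with the median as a bar. The bars lie lowest with miR-139-3p in A498 (-0.43) and highest with siRNA 1 in MDA-MB-231 (0.33), and 1 heavy chain point, HLA-E probe 1, lies above the other heavy chains on every miRNA array but that of miR-490-3p.

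Each group of 2 arrays was tested with limma, the log2 ratio against 0, over all probes above background in the group. For miR-139-5p the test called 1 of 23288 probes changed at an adjusted p under 0.05 (0.00429%) and 0 of the 16 class I probes. An unadjusted p under 0.05 was reached by 3 class I probes and by 1477 of all 23288 probes. The class I median ratio was -0.01, against 0.004 over all probes tested. For miR-139-3p limma called 1 of 22813 probes (0.00438%) and 0 class I probes. An unadjusted p under 0.05 was reached by 6 class I probes and by 2003 of all 22813 probes. The class I median was -0.23 against 0.003 over all probes. For si-GINS1 limma called 3484 of 27803 probes (12.5%), 1776 lower and 1708 higher, and 1 of 16 class I probes, HLA-F probe 2, which was higher. There 7 class I probes and 8779 of all 27803 probes had an unadjusted p under 0.05. The class I median was 0.27 against 0.01 over all probes. The difference between miR-139-3p and miR-139-5p was called for 0 of 22178 probes (0%) and 0 of 16 class I probes, by limma, and 660 probes but 0 class I probes reached an unadjusted p under 0.05. For miR-490-5p and miR-490-3p, with 1 array each, no test was run, since 1 array gives no spread of its own. There 343 of 27929 probes (1.23%) and 262 of 28356 probes (0.924%) had a log2 ratio of 1 or more in size, and 0 class I probes did. With si-GINS1, 1 of 16 class I probes was called beside 12.5% of all probes. No test compared these shares, and a count this small does not set the class I probes apart.

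The classical heavy chains HLA-B and HLA-C, which present peptides to CD8 T cells, were below mock with both miR-139 strands in A498 with loess, while with median centring all 5 of their probes were above 0 with miR-139-5p. HLA-B probe 1 in A498 had log2 ratios of -0.41 with miR-139-5p and -0.70 after miR-139-3p, and -0.21 and -0.28 in 786-O. The same probe had 0.26 with siRNA 1, 0.24 with siRNA 2, -0.65 with miR-490-5p and 0.01 after miR-490-3p. It was therefore below 0 on all 4 miR-139 arrays, with the A498 values lower than those of 786-O, and above 0 on both siRNA arrays, whereas with median centring its miR-139 values were 0.19 and -0.42 in A498 and -0.12 and 0.04 in 786-O. The mean with miR-139-3p was -0.49 ± 0.30 (SD, n = 2, SE 0.11, limma adjusted p = 0.397), and with miR-139-5p -0.31 (SE 0.11, adjusted p = 0.765 by limma), so neither was called.

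HLA-C probe 2, the HLA-C probe with letters of its own, had -0.13 with miR-139-5p and -0.33 after miR-139-3p in A498, and 0.12 and 0.05 in 786-O. With the siRNAs it had 0.40 and 0.38, -0.26 with miR-490-5p and 0.26 after miR-490-3p. Here A498 and 786-O lay on opposite sides of 0. The probes HLA-B probe 2, HLA-B probe 3 and HLA-C probe 1 ran from -0.61 to -0.19 in A498, from -0.17 to -0.10 in 786-O, from 0.27 to 0.43 with the siRNAs, from -0.54 to -0.36 with miR-490-5p and from 0.10 to 0.27 with miR-490-3p. With si-GINS1 the 5 HLA-B and HLA-C probes had means of 0.25 to 0.39, and the lowest limma adjusted p among them was 0.0727, for HLA-B probe 3 (mean 0.35, SE 0.09), which was not called. All 5 were higher than mock with both siRNAs.

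The HLA-E probes disagreed. HLA-E probe 1 had 0.20 with miR-139-5p and 0.45 after miR-139-3p in A498, 0.71 and 0.43 for 786-O, 0.12 and 0.21 with the siRNAs, 0.65 with miR-490-5p and 0.27 after miR-490-3p. It was above 0 on all 8 arrays, in all 4 cell lines. HLA-E probe 2 had -0.09 and -0.42 in A498, 0.05 and 0.05 for 786-O, 0.19 and 0.28 with the siRNAs, -0.35 with miR-490-5p and 0.09 after miR-490-3p, on the same side of 0 as HLA-C probe 2 on every array. On the array of miR-490-5p the HLA-E probes thus stood on opposite sides of 0. The mean of probe 1 was 0.44 with miR-139-3p (SE 0.12, limma adjusted p = 0.480) and 0.46 with miR-139-5p (SE 0.12, limma adjusted p = 0.691). The part of the shared letters in these values was not tested.

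HLA-F, a non-classical chain found partly as an open form without peptide, held the one class I probe that limma called. HLA-F probe 2 had 0.97 with siRNA 1 and 0.46 with siRNA 2, and elsewhere -0.05 and -0.36 in A498, 0.02 and -0.14 in 786-O, -0.15 with miR-490-5p and 0.39 after miR-490-3p. It was above mock with both siRNAs, and the siRNA 1 value exceeded every other value of the 16 probes. With si-GINS1 this probe had a mean of 0.71 ± 0.36 (SD, n = 2, SE 0.13, limma adjusted p = 0.0388). The SE pools the spread within the groups of 2 arrays, both miR-139 groups included, with the spread over all probes drawn in by limma. The single miR-490 arrays add nothing to it. This probe was dim (mock level 7.5 in MDA-MB-231). It was not called with the scanner ratio, without a filter on dim probes or from the arrays of the group alone. The settings counted next include fits that left out 1 siRNA array. Over the 11 settings tried, main setting included, its limma adjusted p ran from 0.00156 to 0.294, and it was called in 8. HLA-F probe 1 had 0.43 and 0.37 with the siRNAs (mean 0.40, limma adjusted p = 0.0823, not called). That probe had -0.12 and -0.44 in A498, 0.02 and -0.01 in 786-O, -0.62 with miR-490-5p and 0.12 after miR-490-3p.

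B2M, the light chain without which classical class I molecules do not reach the surface, had log2 ratios of -0.27 with miR-139-5p and -0.84 after miR-139-3p in A498, and -0.19 and -0.20 in 786-O. With siRNA 1 it had -0.07, with siRNA 2 -0.15, and in HCT116 -0.31 with miR-490-5p and 0.21 after miR-490-3p. It was thus below mock on 7 of 8 arrays (3 of 8 with median centring), and the lowest value of any class I probe on any array was its value with miR-139-3p in A498. The mean with miR-139-3p was -0.52 ± 0.45 (SD, n = 2, SE 0.15, limma adjusted p = 0.490), and it was not called. In MDA-MB-231 it was the only one of the 16 class I probes below 0 with both siRNAs (mean -0.11, SE 0.15, limma adjusted p = 0.670). B2M was measured by 10 spots per array, while each other class I probe had 1.

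TAP1 had log2 ratios of -0.04 and -0.15 in A498 and 0.06 and 0.11 in 786-O, with miR-139-5p first in each pair. It had 0.96 with siRNA 1, 0.35 with siRNA 2, 0.30 with miR-490-5p and -0.02 after miR-490-3p. In A498 it moved less than the heavy chains, and with siRNA 1 it stood beside HLA-F probe 2 as the highest of the 16 probes. The mean with si-GINS1 was 0.66 ± 0.43 (SD, n = 2, SE 0.16, limma adjusted p = 0.0655) and missed the threshold. Over the 11 settings the limma adjusted p of TAP1 ran from 0.00229 to 0.336, and it was called in 5 of them.

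TAP2, the partner of TAP1, differed between the siRNAs. TAP2 probe 1 had 0.81 with siRNA 1 and -0.53 with siRNA 2, on opposite sides of 0, for a mean of 0.14 ± 0.95 (SD, n = 2, limma adjusted p = 0.806). It had -0.05 and -0.49 in A498, 0.03 and -0.11 in 786-O, -0.41 with miR-490-5p and 0.55 after miR-490-3p. The TAP subunits work as a pair, and their probes stood on the same side of 0 with siRNA 1 and on opposite sides with siRNA 2, on both HCT116 arrays and in 786-O cells given miR-139-3p.

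TAPBP probe 1 (chr6:33267718-33267777) had log2 ratios of 0.33 with miR-139-5p and -0.16 after miR-139-3p in A498, and 0.37 and 0.23 in 786-O. It had 0.30 and 0.26 with the siRNAs, -0.18 with miR-490-5p and 0.74 after miR-490-3p, the highest class I value on that last array. With miR-139-5p the lines were close (mean 0.35 ± 0.03, SD, n = 2, SE 0.09, limma adjusted p = 0.697), and the ratio was not called. TAPBP probe 2 ran from -0.29 to 0.06 over the 8 arrays and TAPBP probe 3 from -0.07 to 0.08, so the 3 tapasin probes differed in size, probe 1 being the brightest of them.

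PSMB9 had log2 ratios of 0.08 with miR-139-5p and -0.45 after miR-139-3p in A498, and -0.05 and -0.03 in 786-O. It had 0.48 with siRNA 1 and -0.33 with siRNA 2, on opposite sides of 0 as TAP2 was, and 0.15 with miR-490-5p and 0.08 after miR-490-3p. The mean with si-GINS1 was 0.08 ± 0.57 (SD, n = 2, limma adjusted p = 0.841). In HCT116, where its mock level was lowest, its ratios were at most 0.15.

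The strands of a duplex, and the siRNAs, were then compared within each line, where the ratio of one array was subtracted from that of the other. In A498, miR-139-3p minus miR-139-5p was below 0 for 15 of 16 class I probes, with a median of -0.30 against -0.003 over all probes above background. The lowest differences were -0.57 for B2M, -0.54 for PSMB9, -0.48 for TAPBP probe 1, -0.44 for TAP2 probe 1 and -0.33 for HLA-E probe 2, and these 5 lay under the 5th percentile of all probes (-0.33). HLA-E probe 1, at 0.25, was the 1 probe above 0. With the scanner's own log ratio 0 of 16 lay under the 5th percentile (-0.80). In 786-O the same subtraction gave a median of -0.05 with 12 of 16 probes below 0, and B2M and PSMB9 differed there by -0.003 and 0.02. With each array's ratios centred on the median in place of loess, all 16 were below 0 in A498 (median -0.56), while in 786-O only 4 of 16 were and the median was 0.17. The medians over all probes were then -0.095 in A498 and 0.081 in 786-O. With both lines together the limma contrast called none of the class I probes, and its lowest unadjusted p among them was 0.0724 for TAPBP probe 1 (mean difference -0.31, limma adjusted p = 1.0).

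In HCT116, miR-490-3p minus miR-490-5p was above 0 for 13 of 16 class I probes, with a median of 0.53 against -0.001 over all probes. The differences were 0.96 for TAP2 probe 1, 0.91 for TAPBP probe 1, 0.75 for HLA-C probe 1, 0.74 for HLA-F probe 1 and 0.67 for HLA-B probe 1, and 7 of 16 lay over the 95th percentile of all probes (0.56). HLA-E probe 1 at -0.38, TAP1 at -0.32 and PSMB9 at -0.07 were below 0. The count of 3 below 0 was the same with each of the 4 other ways to correct background or scale the arrays, though with the scanner's own log ratio 2 lay over the 95th percentile. There is 1 array of each strand, so this difference has no replicate check.

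In MDA-MB-231, siRNA 1 minus siRNA 2 had a median of 0.05 over the class I probes, and 4 of 16 were below 0. Most heavy chain probes were alike with both siRNAs, HLA-C probe 2 differing by 0.01 and HLA-B probe 1 by 0.02. The probes that differed were TAP2 probe 1 by 1.34, PSMB9 by 0.81, TAP1 by 0.61 and HLA-F probe 2 by 0.51, and the first 2 of these lay over the 95th percentile of all probes (0.75). All 4 were higher with siRNA 1.

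**Figure D3:**
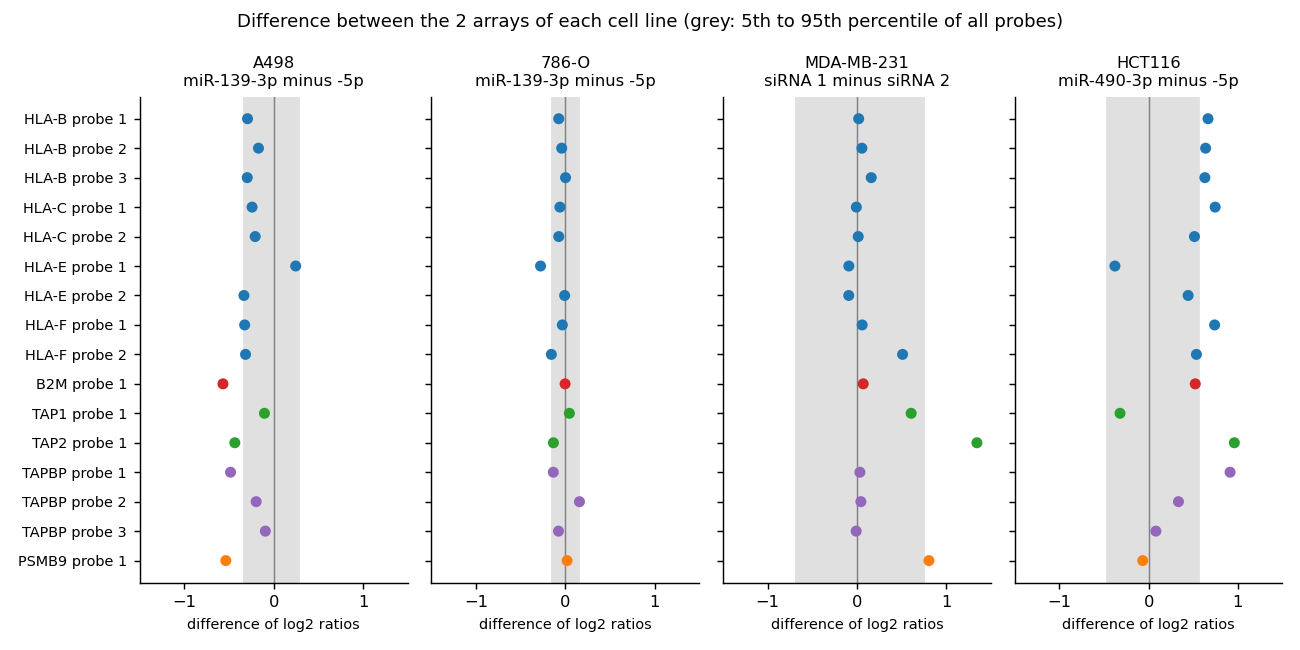
Difference of log2 ratios between the 2 arrays of each cell line (x axis) for 16 class I probes, with the 5th to 95th percentile of all probes above background in grey. In A498 most points lie left of 0, B2M at -0.57, and in HCT116 most lie right of 0, TAP2 probe 1 at 0.96, while in 786-O they lie near 0.

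The size of the class I ratios with si-GINS1 depended on how the arrays were scaled. Loess sets ratios relative to probes of similar brightness, and most class I probes are bright. With median centring in place of loess the mean ratios of the 16 probes had a median of 0.91 and 11 were called by limma, all higher. In that setting the median of all probes tested moved to 0.13, and of 4831 probes called 4262 were higher (88.2%), against 1708 of 3484 (49.0%) with loess. With the scanner's own log ratio, limma called 187 probes (40.6% of them higher) and 0 class I probes (3 at an unadjusted p under 0.05), none of which had changed sign. That unadjusted p was reached by 5843 of 27803 probes. HLA-B probe 1, for example, had a mean of 0.25 with loess, 0.18 with the scanner ratio and 0.96 with median centring, and B2M changed sign, from -0.11 with loess to 0.50 with median centring.

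**Figure D4:**
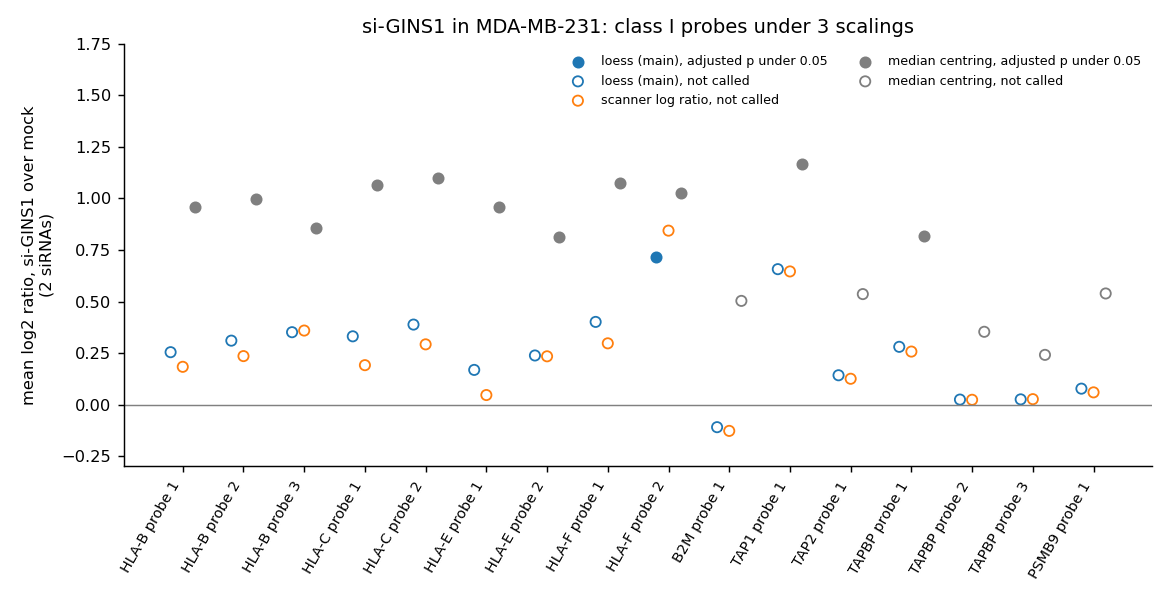
Mean log2 ratio of 2 siRNAs against mock (y axis) for 16 class I probes under loess, the scanner's log ratio and median centring, with filled points for a limma adjusted p under 0.05. Under median centring 11 points are filled, under loess only HLA-F probe 2, and under the scanner's ratio none.

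The other genes of the pathway were taken from lists by function, 1 probe a gene. Over the 9 lists limma called 8 of 74 genes with si-GINS1 (10.8%), against 12.5% of all probes. With si-GINS1 limma called 2 of 7 class I genes tested outside the members: MICB, a stress ligand of NKG2D, rose (0.63, adjusted p = 0.0319) and HFE, a class I-like regulator of iron uptake, fell (-0.31, adjusted p = 0.0304). Of 4 other immunoproteasome and activator genes, limma called 2 with si-GINS1, both lower, PSMB10 (-0.46, adjusted p = 0.0120) and PSME1 (-0.30, adjusted p = 0.0220). Among peptide trimming enzymes 1 of 6 was called, LNPEP (-0.67, limma adjusted p = 0.0424). Of 13 transcription factors tested, RELA was the 1 called and was higher (0.58, limma adjusted p = 0.0197), and of 11 interferons, receptors and signalling genes IFNGR1 was (0.76, limma adjusted p = 0.0186). With si-GINS1 limma called 0 of 3 constitutive catalytic proteasome subunits (1 at an unadjusted p under 0.05), 0 of 6 loading and folding genes (0 at that p) and 0 of 7 class II genes (1 at that p). In the same cells the leukocyte marker CD14 fell (-1.19, limma adjusted p = 0.00320) and PTPRC rose (0.20, limma adjusted p = 0.0253), and their part in the class I values was not tested. With either strand of miR-139 limma called 0 genes of the 9 lists, with 5 of 69 genes (miR-139-5p) and 4 of 65 genes (miR-139-3p) at an unadjusted p under 0.05. Over all probes 1477 of 23288 and 2003 of 22813 reached that p.

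Most chaperones that fold and load class I molecules were below mock on both HCT116 arrays. HSPA5 had -2.35 with miR-490-5p and -1.41 after miR-490-3p, PDIA3, which pairs with tapasin, -1.53 and -1.11, and CALR -1.29 and -0.97. In this list 5 of 5 genes above background were below 0 with miR-490-5p and 5 of 6 with miR-490-3p. Of the 16 class I probes, 13 were below 0 with miR-490-5p and 15 above 0 with miR-490-3p. HSPA5 also had 1.63 with siRNA 1 and -0.48 with siRNA 2. NFYB, a subunit of a factor that binds class I promoters, had 0.34 with siRNA 1 and -1.09 with siRNA 2.

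Interferon response genes are shown beside the members because interferon raises class I genes. In A498, 16 of 17 of them were below 0 with each strand of miR-139, with medians of -0.27 (miR-139-5p) and -0.85 (miR-139-3p). Those at or below -1 with miR-139-3p were IFIT2 (-1.37), IFIT1 (-1.28), IFI44L (-1.08), IFI27 (-1.07), IFIT3 (-1.04) and IFI44 (-1.03). In 786-O the medians were 0.06 and -0.05. So the array with the lowest class I median also had the lowest interferon response median. With miR-490-3p in HCT116, 11 of 12 were above 0, with a median of 0.51 (IFIT2 1.63, IFIT1 1.30, ISG15 1.03), and with miR-490-5p the median was -0.04. In MDA-MB-231 the order was the other way, with medians of -0.29 for both siRNAs (IFIT2 -1.49, IFIT3 -1.44 and IFIT1 -1.44 with siRNA 1) while the class I medians were 0.33 and 0.27. Limma called 1 of 17 with si-GINS1, IFI35, which fell (-0.81, adjusted p = 0.0341). The part of interferon signalling in the class I ratios was not tested.

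**Figure D5:**
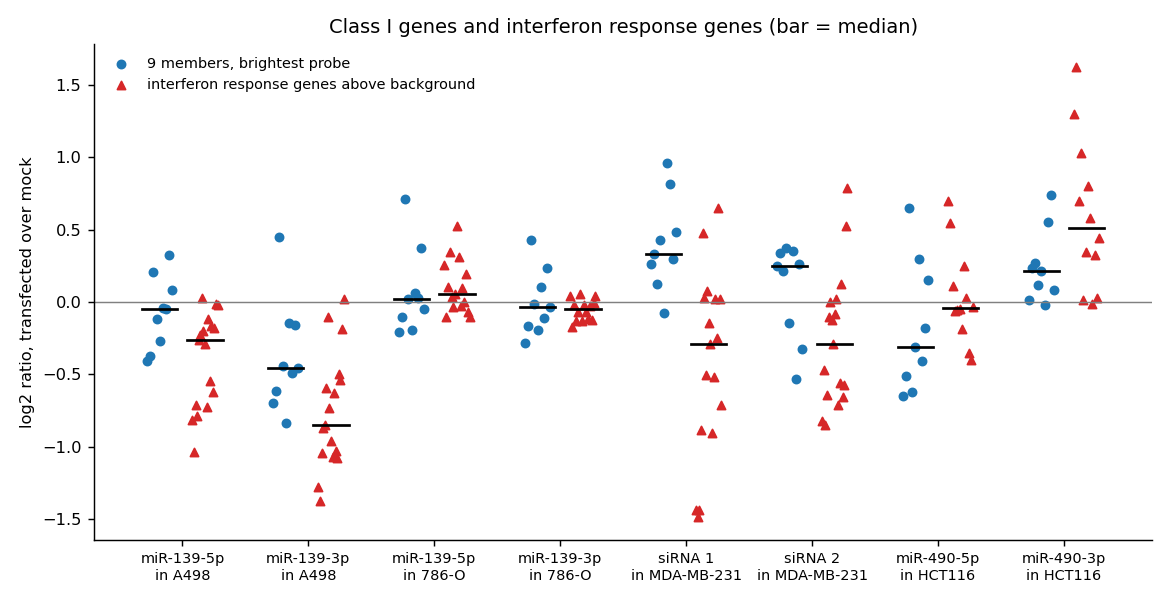
Log2 ratio of the 9 class I genes, brightest probe each (circles), and of interferon response genes above background (triangles) on 8 arrays, with the median as a bar. The circles of HLA-B and HLA-C come from overlapping probes, and that of HLA-E from probe 1. Both bars lie below 0 in A498 and above 0 with miR-490-3p, and on the siRNA arrays the class I bar is above 0 and the interferon bar below.

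The mean log2 ratio of the 9 genes, 1 probe each, was -0.07 and -0.38 in A498, 0.07 and -0.003 for 786-O, 0.40 and 0.09 with the siRNAs, -0.18 with miR-490-5p and 0.24 after miR-490-3p. In this profile too HLA-B and HLA-C were read by overlapping probes and HLA-E by probe 1. Among 3405 other genes above background on all arrays with an SD of at least 0.3, the 5 whose ratios had the highest Pearson correlation with this profile over the 8 arrays were STK32C (0.963), the transcript ENST00000520239 (0.933), FKBP11 (0.927), CAPN15 (0.918) and TRNP1 (0.916). STK32C had -0.07 and -0.39 in A498, 0.17 and 0.06 for 786-O, 1.09 and 0.29 with the siRNAs, -0.41 with miR-490-5p and 0.67 after miR-490-3p. These points share a slide and, by line, possibly the mock RNA, and no test was made of them.

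Promoters are shown because the members share control elements that the rule for choosing them did not use. RefSeq windows of 250 bases before to 50 after a start (GRCh38.p14) were at hand for 8 of the 9 genes, 9 windows in all, with 2 for TAP1 (HLA-E was not among them). Both strands were searched for AANNGAAA, a core of interferon response elements, its doubled form with GAAA at each end and any 2 bases between (which overlaps the first), a kappa-B-like motif (GGG, any 2 bases, TT, any base, CC), TGACG, a core of cyclic AMP elements, and ATTGG, the CCAAT box read on the other strand. AANNGAAA stood in 7 of the 9 windows, against 22.8% of 35116 promoters. The doubled form stood in 5 windows (3.57% of all promoters), the kappa-B-like motif in 4 (5.68%), TGACG in 5 (24.6%) and ATTGG in 6 (34.6%). The ATTGG matches of TAP1 and PSMB9 are the same bases, counted in both of their overlapping windows.

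Below are the 250 bases before the start of HLA-B (chr6:31357180-31357429, minus strand), B2M (chr15:44711267-44711516, plus strand) and TAP1 (chr6:32853705-32853954, minus strand), with matches to any of these motifs in capitals.
HLA-B: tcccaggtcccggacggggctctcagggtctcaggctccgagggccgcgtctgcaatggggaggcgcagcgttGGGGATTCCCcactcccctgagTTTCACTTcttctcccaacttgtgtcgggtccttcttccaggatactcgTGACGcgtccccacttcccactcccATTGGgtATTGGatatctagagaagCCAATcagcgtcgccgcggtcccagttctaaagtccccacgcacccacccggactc
B2M: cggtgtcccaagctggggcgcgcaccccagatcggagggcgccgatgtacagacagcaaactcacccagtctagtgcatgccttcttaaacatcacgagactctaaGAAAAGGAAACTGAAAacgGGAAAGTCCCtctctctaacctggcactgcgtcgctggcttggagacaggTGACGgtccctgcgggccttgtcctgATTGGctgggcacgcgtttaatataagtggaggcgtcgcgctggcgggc
TAP1: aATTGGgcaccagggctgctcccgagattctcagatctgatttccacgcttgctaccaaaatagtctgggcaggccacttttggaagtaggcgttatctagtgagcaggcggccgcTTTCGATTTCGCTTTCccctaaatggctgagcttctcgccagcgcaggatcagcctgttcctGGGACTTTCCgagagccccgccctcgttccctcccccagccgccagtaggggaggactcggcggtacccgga
In HLA-B the matches ran in the order kappa-B-like, interferon core, TGACG and 3 copies of ATTGG toward the start. B2M held the doubled interferon form in 2 overlapping copies followed by a kappa-B-like match, TGACG and ATTGG. The first TAP1 window held 2 overlapping doubled copies, a kappa-B-like match and 1 ATTGG, and the second window, at another start of the gene, held none of the motifs. TAP1 and PSMB9 run in opposite directions from starts 488 bases apart, so their windows share 13 bases. A match describes letters and is not a measured binding site.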

How the data were processed

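RNA was hybridised to 8 two-colour Agilent arrays. Per the file headers, the authors made the deposited values with Agilent Feature Extraction 11.5.1.1. They deposited the intensity of each spot and its background, linear and not normalized, and a log10 ratio of Cy5 over Cy3 after the scanner software's corrections, used here as an alternative after conversion to log2. The design is on hg19.

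Each array held 62976 spots, of them 2075 controls. Spots with an outlier flag (169 to 272 on an array, with 18 class I readings in all) were dropped. Background was corrected in limma 3.58.1 (R 4.3.3) by normexp with offset 50, ratios were normalized by loess with controls at weight 0, then the spots of each probe were averaged. The offset shrinks the ratios of dim probes. Groups were tested with lmFit and eBayes in 1 fit of 8 arrays (5 coefficients, 3 residual degrees of freedom), against 0, with Benjamini-Hochberg adjustment over all probes above background. The ratio leaves out the mock's own spread, and no label says that replicates came from separate cultures, so p-values then measure the spread between these arrays. Precision is limited by their number. Later steps used Python 3.11.15, numpy 2.4.6, pandas 2.3.3 and matplotlib 3.10.9. The fit was tested on simulated data.

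The arrays of both miR-139 strands pair by cell line in the labels. The deviations of same-line arrays from their groups' means correlated at 0.0753 (22178 probes). Alternatives were offset 10, no background correction, median centring, the scanner ratio, no filter on dim probes, a variance trend, fits of each group's arrays alone, the cell line as a block and leaving out each array. A variance prior from tested probes alone was added after seeing the data. Symbols followed RefSeq for 31104 of 33080 accessions, with the annotation's name otherwise. All probes of the 9 genes could be named, and of each list the genes called by limma or with a log2 ratio of 1 or more in size on an array, at most 6 per list and array pair. The members and lists were chosen with earlier results of these data known. Some results are not reported here.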

Additional observations from a re-analysis of the deposited data

Results flagged for a closer look

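Of 16 class I probes, 3 had both A498 arrays on one side of 0 and both 786-O arrays on the other, whichever strand of miR-139 was transfected. The mean of the 786-O arrays minus that of the A498 arrays was 0.311 for HLA-C probe 2, 0.304 for HLA-E probe 2 and 0.178 for TAP1. All 3 were below mock in A498 and above it in 786-O, and the difference between the lines was not tested. With median centring no class I probe was below 0 with miR-139-5p in A498, where 18.3% of all probes were, so these directions did not hold there.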

How the results depend on the processing

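The number of class I probes called with si-GINS1 was 1 and moved with most settings. It was 2 with offset 10, 2 without background correction (HLA-F probe 2 and TAP1 in both), 11 with median centring, and by limma 0 with the scanner ratio (3 class I probes at an unadjusted p under 0.05), 0 without a filter on dim probes (7 at that p) and 0 from the arrays of the group alone (10 at that p). Over all probes 5843 of 27803, 9537 of 58201 and 4694 of 27803 reached that p in these last settings, in that order. The number of class I probes called stayed 1 with a variance trend and with the added prior. Leaving out 1 siRNA array gave 3 to 4, the lone array being assumed to vary like the other groups, and without siRNA 1 TAP2 probe 1 had the opposite sign (-0.53, limma adjusted p = 0.0381, which over all settings ran from 0.00878 to 0.910), while it was 0.81 without siRNA 2. Over all probes the calls ran from 0 to 4831 across settings that kept both arrays, and were 1936 with the added prior. Counts past 1 in size were 1 with miR-490-5p (HLA-E probe 1) and 1 with miR-490-3p (TAPBP probe 1) under median centring, and on the siRNA 1 array 11 under median centring and 1 with offset 10, without background correction and with the scanner ratio. The counts for miR-139-5p, miR-139-3p and their contrast were 0 in every setting, including the leave-one-out fits (0 to 0) and the cell line as a replicate block (0 called by limma, 1 at an unadjusted p under 0.05). Signs of uncalled means did change, for 11 of 16 probes with miR-139-5p and 5 of 16 with miR-139-3p under median centring, and for 10 of 16 in the contrast without the A498 array of miR-139-3p. The causes were not tested. Dim probes such as TAPBP probe 3 have ratios pulled toward 0.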
